A study of Homo sapiens with 6 samples.

Results

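The respiratory chain was followed at the transcript level in MHCC-97H, an established human liver cancer cell line, after 16 h with 10 μM of 6j, a compound derived from sophoridine, which is an alkaloid of plants. The members were the rows of the count table whose symbol names a subunit of NADH dehydrogenase (MT-ND, NDUFA, NDUFB, NDUFC, NDUFS and NDUFV), succinate dehydrogenase (SDHA to SDHD), cytochrome bc1 (MT-CYB, UQCR and CYC1), cytochrome c oxidase (MT-CO and COX4 to COX8) or ATP synthase (MT-ATP and ATP5), with the NDUFAF assembly factors left out. This rule took 104 of 25445 rows by symbol and used no measured value, but it was chosen with earlier results of these data known. Of these, 13 are encoded by mitochondrial DNA and 91 by nuclear chromosomes, and 97 are counted here as subunits of complexes I to V. The remaining 7 are an inhibitor, a supercomplex factor, paralogues and readthrough genes that carry the same symbols. The 6j treated cells gave 3 libraries, and so did the non-treated cells, which received only the solvent for the same 16 h. The labels name no engineered change in the cells. Nothing in the sources used here says whether the libraries of a group came from separate cultures, so p-values measure only the spread between these libraries.

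The respiratory chain passes electrons from NADH and succinate through complexes I, II, III and IV to oxygen and pumps protons out of the mitochondrial matrix, and ATP synthase, complex V, lets the protons back in to make ATP. Complexes I, III, IV and V are built from subunits of both genomes, whereas complex II is nuclear encoded throughout. The mitochondrial mRNAs are cut from long transcripts that run around the circular genome, and their proteins are made on mitochondrial ribosomes. The nuclear-encoded subunits are made in the cytosol and imported, so that each mixed complex needs the output of both genomes.

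RNA with a poly(A) tail had been selected with oligo(dT) beads, and the libraries held 31533403 to 38018349 counts. Levels are given as CPM, that is, counts on a gene relative to the size of the library after TMM normalization. A row passed the test at an adjusted p under 0.05 in edgeR's quasi-likelihood test (Benjamini-Hochberg over 15957 rows) and was a differentially expressed gene (DEG) if its fold change was also above 1.5. Over all rows tested, 4.37% passed as lower and 4.79% as higher in 6j treated cells. The liver label was checked against markers. Of 10 hepatocyte and hepatocellular carcinoma markers, only HNF4A was above 0 in every library, TTR was at 0 in all of them, and their summed level was 0.661 to 1.65 CPM in non-treated and 1.25 to 1.92 CPM in 6j treated cells. The defining liver products, ALB and AFP included, were therefore at or near 0, whereas the epithelial keratins KRT8 and KRT18 were abundant. With EPCAM, which was at 0, the 3 epithelial markers summed to 904 to 1110 CPM in non-treated and 705 to 823 CPM in 6j treated cells, and the part of this difference in the results was not tested. The 4 fibroblast markers summed to 269 to 329 CPM in non-treated and 248 to 315 CPM in 6j treated cells, of which COL1A2 was at 0. The 3 endothelial markers reached at most 6.25 CPM and the 4 leukocyte markers at most 0.961 CPM in any library, and PTPRC and CD3E were at 0.

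Transcripts of the respiratory chain fell in 6j treated cells in every complex and from both genomes. Of the 96 members with enough counts for the test, 50 fell and none rose in edgeR, where the share of all rows that fell was 4.37%, and 46 did not pass. At an unadjusted p under 0.05, a looser cut for which no share of all rows is given here, 80 were lower and 1 was higher. DESeq2 called 66 lower (8.01% of its rows) and 1 higher, and edgeR called 39 lower after a correction for GC content and exon length (4.77% of its rows). Among rows at or above 50.04 CPM, the lower quartile of the members, 8.08% of 5025 rows fell. The differences were small, with a median log2 fold change of −0.38 (quartiles −0.49 and −0.29) against 0.0046 over all rows tested, which is a median difference of −23.2% in level. The fold change was below 0 for 93 members and above 0 for COX7A2L, NDUFA4L2 and MT-ND1. Only 8 members were DEGs, all lower (1.12% of all rows, against 2.48% for DEGs that rose), and these were ATP5MC1, ATP5MC3, ATP5F1E, CYC1, NDUFB3, NDUFA3, MT-ND3 and MT-CO3. NDUFA2, with a log2 fold change of −0.58 and an adjusted p of 0.0221 from edgeR's quasi-likelihood test, lay just under the fold limit. In 84 members, every 6j treated library lay below every non-treated library, which held for 15.8% of all rows. Since these were bulk samples, fewer cells with such transcripts and less of them per cell cannot be told apart.

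The number of calls depended on how the libraries were paired and on single libraries. Libraries with the same replicate number deviated together, and once the replicate number entered the fit as a block, 80 members fell and 1, COX7A2L, rose (13.9% and 13.1% of all rows). Without non-treated replicate 1 there were 9 members that fell of 63 rows in all, without 6j replicate 2 there were 10 of 65, without non-treated replicate 2 there were 20 of 258, and without non-treated replicate 3 there were 24 of 261. NDUFB3, COX7B, ATP5MC1, ATP5MC3, ATP5MF, UQCR10 and UQCRQ fell in all 6 of the fits that left out 1 library. The log2 fold change of 92 members was below 0 in every one of up to 17 fits.

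**Figure D1:**
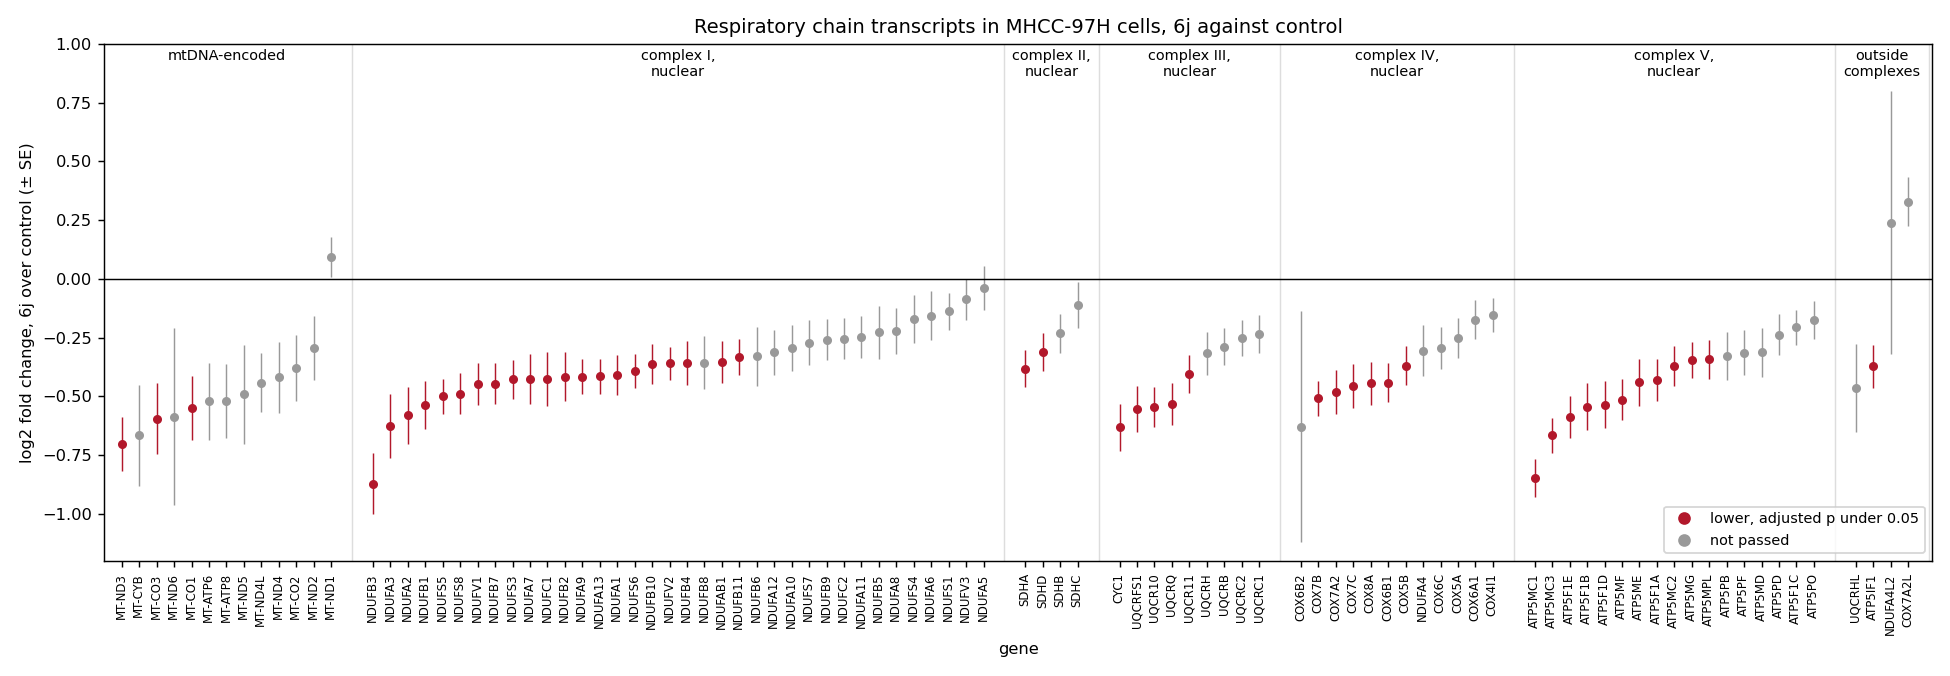
Log2 fold change of 6j treated over non-treated cells for the members tested except 1 that is not shown, ordered by complex and encoding genome, with points at the edgeR estimate and bars of ± 1 standard error. The points of members that passed as lower are red, and apart from MT-ND1, NDUFA4L2 and COX7A2L all points lie below 0.

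**Figure D2:**
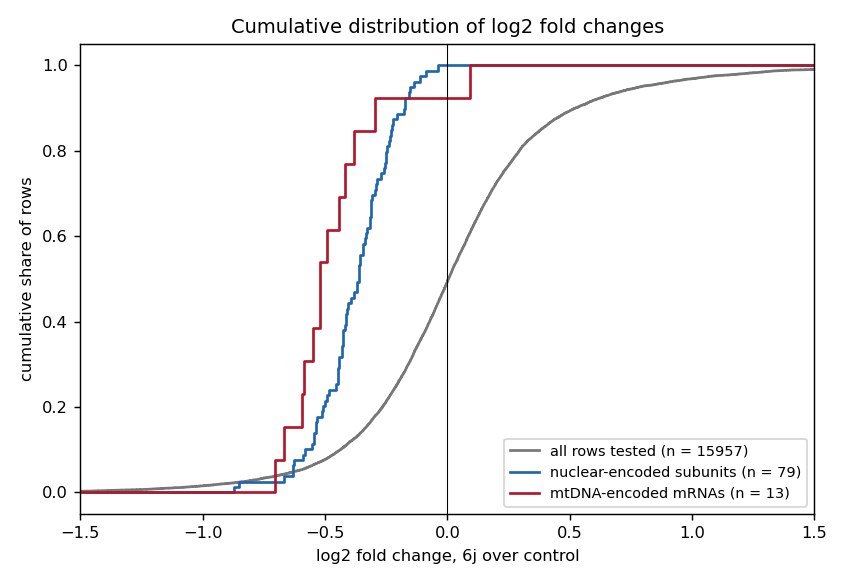
Cumulative share of rows against the log2 fold change for all 15957 rows tested, the 79 nuclear-encoded subunits and the 13 mitochondrially encoded mRNAs. The curve of all rows crosses 0 near its middle, whereas all 79 nuclear-encoded subunits and 12 of the 13 mitochondrial mRNAs lie below 0, and the horizontal axis is cut at −1.5 and 1.5.

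The 13 mitochondrially encoded mRNAs took 4.39%, 3.83% and 4.86% of the counts in non-treated replicates 1 to 3 and 3.46%, 2.65% and 3.37% in 6j treated replicates 1 to 3. The mean was 4.36 ± 0.516% (SD, n = 3) in non-treated and 3.16 ± 0.444% (SD, n = 3) in 6j treated cells, and the groups did not overlap. The nuclear-encoded subunits of complexes I to V took 0.879%, 0.886% and 0.902% in non-treated cells and 0.714%, 0.695% and 0.666% in 6j treated cells, so that their spread within a group was narrower. The ratio of mitochondrial to nuclear counts was 5.0, 4.33 and 5.39 in non-treated and 4.85, 3.82 and 5.06 in 6j treated cells, which overlapped between groups and was lower in 6j treated cells in each of the 3 pairs. These shares are descriptions without a test.

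**Figure D3:**
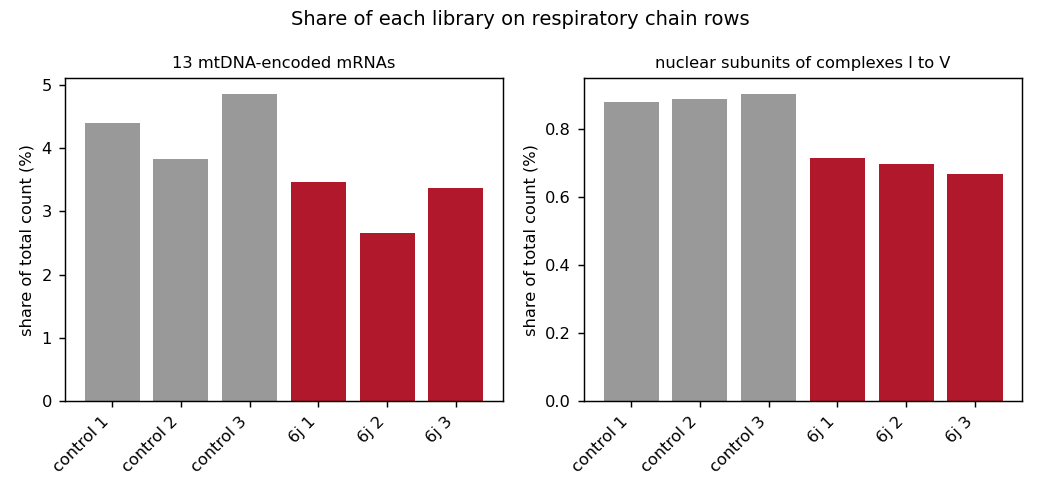
Share of the total count of each library on the 13 mitochondrially encoded mRNAs (left) and on the nuclear-encoded subunits of complexes I to V (right), in percent, with 1 bar for each library. In both panels all 3 bars of 6j treated cells are lower than all 3 bars of non-treated cells.

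Among the mitochondrial mRNAs, MT-ND3, MT-CO3 and MT-CO1 fell, and 12 of the 13 fell with the replicate block. DESeq2 without the block called 10 of the 13 as lower, whereas the correction for GC content and exon length left MT-ND3 alone. The median of their log2 fold changes was −0.52. In 9 of the 13, every 6j treated library lay below every non-treated library (15.8% of all rows). MT-ND3, a membrane subunit of complex I (chromosome M, 10059 to 10404, plus strand), was at 351, 296 and 407 CPM in non-treated and 221, 211 and 217 CPM in 6j treated replicates 1 to 3. All 3 treated libraries lay below the lowest non-treated library. The log2 fold change was −0.70 ± 0.11 (standard error) with an adjusted p of 0.0107 from edgeR. It was not called in all fits that left out 1 library, and ranged there from −0.81 to −0.58.

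The complex IV core followed. MT-CO1, the subunit that holds the haem and copper site where oxygen is reduced (chromosome M, 5904 to 7445), was at 12219, 10994 and 12794 CPM in non-treated and 8930, 6838 and 8826 CPM in 6j treated cells. These groups did not overlap, and the log2 fold change was −0.55 ± 0.14 (adjusted p = 0.0374 from edgeR). MT-CO3 was at 3556, 2812 and 3446 CPM in non-treated and 2643, 1873 and 1979 CPM in 6j treated cells, with a log2 fold change of −0.60 ± 0.15 (edgeR, adjusted p = 0.0423). In the fits without 1 library, 0 to 3 of the 13 mitochondrial mRNAs passed, with the fewest without non-treated replicate 1 or 6j replicate 2 and 1 without non-treated replicate 3. MT-CO2, which takes the electrons from cytochrome c, did not pass at −0.38 ± 0.14 (adjusted p = 0.122 from edgeR), and did with the block (adjusted p = 0.000605).

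The spread between replicates was large for several of these mRNAs, and it was shared between libraries with the same number. MT-ND6, a complex I subunit and the only one of the 13 on the minus strand (chromosome M, 14149 to 14673), was at 718, 645 and 1197 CPM in non-treated and 501, 384 and 818 CPM in 6j treated cells. Replicate 3 was the highest in both groups, and the 6j treated library of replicate 3 was higher than non-treated replicates 1 and 2. The log2 fold change of −0.59 ± 0.38 did not pass (adjusted p = 0.401 from edgeR), whereas within pairs the differences were −0.52, −0.75 and −0.55 and the adjusted p with the replicate block was 4.6e-05. MT-CYB, the catalytic cytochrome b of complex III, showed 2413, 1878 and 3009 CPM in non-treated and 1757, 1129 and 1712 CPM in 6j treated cells, and passed in edgeR once the block was added (adjusted p of 0.0989 without and 0.000107 with the replicate block in edgeR). MT-ND5 (−0.49), MT-ND4L (−0.44), MT-ND4 (−0.42) and MT-ND2 (−0.29), further membrane subunits of complex I, had adjusted p-values of 0.187, 0.0589, 0.116 and 0.205 without the block and of 8.9e-05 to 0.00406 with it, as edgeR gave them. Whether counting used the strand is not stated in the sources used here, so reads of MT-ND6 cannot be told apart from antisense reads of the same stretch. The RNA was selected by its poly(A) tail, and how well this caught MT-ND6 or the other mitochondrial mRNAs was not tested.

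MT-ATP6 and MT-ATP8, the mitochondrial subunits of the membrane part of ATP synthase, stood at −0.52 ± 0.16 each (adjusted p of 0.0799 and 0.0759 from edgeR), and passed with the block (adjusted p = 0.000181 and 0.00424). Their reading frames overlap over 46 bases, chrM:8527-8572 in GRCh38 on the plus strand, so that a read there fits both rows. How such a read was counted is not given in the sources used here, and the values of these rows may not be independent. The shared stretch is printed in lower case, with no part marked.
MT-ATP8 and MT-ATP6 overlap: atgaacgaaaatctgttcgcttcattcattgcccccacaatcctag
MT-ND4L and MT-ND4 share 7 bases, and MT-ATP6 and MT-CO3 share 1.

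MT-ND1 stood apart from the other mitochondrial mRNAs. This complex I subunit lies first of the 13 on the plus strand (chromosome M, 3307 to 4262), and was at 838, 891 and 884 CPM in non-treated and 877, 943 and 969 CPM in 6j treated cells. The groups overlapped, and the log2 fold change of 0.09 ± 0.08 did not pass without the block (adjusted p = 0.537) or with it (adjusted p = 0.213 in edgeR). It was above 0 in all 3 pairs and in all 16 fits. With the GC and length correction it stood at 0.19, and MT-ND1 then rose with the replicate block (adjusted p = 0.0108) and did not pass without it (adjusted p = 0.175). Per kb of length, MT-ND1 was the lowest of the 13 in non-treated cells at 911 CPM per kb, against 7784 for MT-CO1 and 7365 for MT-CO2, the highest. Along the plus strand, the 12 log2 fold changes had a Spearman correlation of −0.48 with position, and −0.33 over the 11 without MT-ND1. These points share libraries and may in part share reads, and the correlation is a description.

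**Figure D4:**
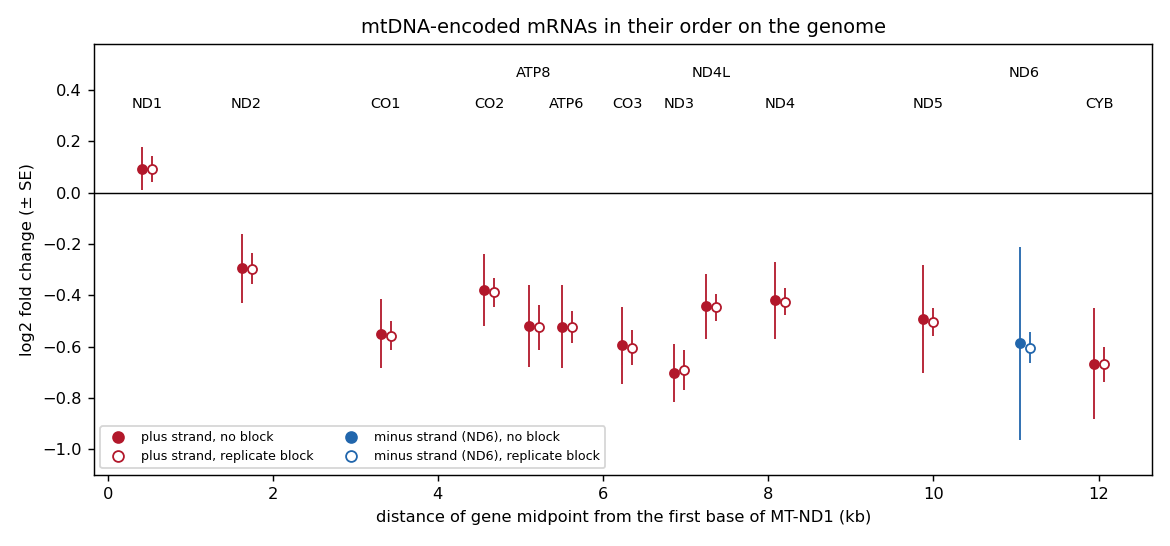
Log2 fold change (± 1 standard error) of the 13 mitochondrially encoded mRNAs against the distance of the gene's midpoint from the first base of MT-ND1, in kb, without (filled) and with (open) the replicate block. MT-ND1 lies above 0 and the other 12 below, and the bars of MT-ND6 shrink most with the block.

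Complex I has 37 nuclear-encoded members in the test, and 22 of them fell (30 with the replicate block). The median log2 fold change was −0.36, from −0.87 for NDUFB3 to −0.04 for NDUFA5. Of the 7 core subunits, which carry the flavin and iron-sulfur clusters of the arm in the matrix, 5 fell. NDUFS8, an iron-sulfur protein of this arm, was at 72.9, 75.2 and 73.9 CPM in non-treated and 58.04, 51.2 and 48.8 CPM in 6j treated cells, and had a log2 fold change of −0.49 ± 0.09 (edgeR, adjusted p = 0.0127). NDUFS3, NDUFV1 and NDUFV2 fell by 0.43, 0.45 and 0.36 on the log2 scale. NDUFS1, the largest of the nuclear-encoded core subunits, was at −0.14 and did not pass with or without the block (adjusted p = 0.136 and 0.31 in edgeR), and NDUFS7 was at −0.27 with an edgeR adjusted p of 0.112 without the block and 0.0121 with it.

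Of the 30 accessory subunits of complex I, which surround the core, 17 fell, and the widest difference among all nuclear-encoded members was here. NDUFB3, of the membrane arm (chromosome 2, 201071433 to 201085750), was at 23.5, 23.6 and 24.2 CPM in non-treated and 12.02, 11.7 and 15.2 CPM in 6j treated cells. No library came between the groups, and the log2 fold change was −0.87 ± 0.13 (adjusted p = 0.00808 from edgeR). NDUFB3 shares exon positions with FAM126B on the opposite strand, so part of its reads may belong to that gene. NDUFS5 was at 161, 162 and 171 CPM in non-treated and 117, 111 and 121 CPM in 6j treated cells, a log2 fold change of −0.50 ± 0.08 (edgeR, adjusted p = 0.00854). NDUFA9 fell by 0.42, and the DEG NDUFA3, from 18.3 ± 1.26 to 11.8 ± 1.64 CPM (SD, n = 3), fell by 0.63 on the log2 scale. NDUFA3 was called in 1 of the 6 fits without 1 library, and shares exon positions with TFPT on the other strand. At the other end, NDUFA5 was at 44.5 to 52.2 CPM in non-treated and 44.7 to 50.3 CPM in 6j treated cells, and NDUFV3 was at −0.09 with an adjusted p of 0.587 from edgeR.

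Complex II, which oxidises succinate and joins the citric acid cycle to the chain, had the smallest median, −0.27 over its 4 subunits, of which 2 fell. SDHA, the flavoprotein, was at 310, 313 and 289 CPM in non-treated and 247, 224 and 229 CPM in 6j treated cells, with a log2 fold change of −0.38 ± 0.08 (edgeR, adjusted p = 0.0211). SDHD, a membrane anchor, was at 81.2, 85.3 and 92.4 CPM in non-treated and 70.4, 71.7 and 66.5 CPM in 6j treated cells, and its adjusted p of 0.0456 from edgeR lay just under the threshold. It shares exon positions with TIMM8B on the opposite strand, and no fit without 1 library called it. SDHB, the iron-sulfur subunit, did not pass at −0.23 ± 0.08 (adjusted p = 0.11), and did with the block (adjusted p = 0.0153 in edgeR). SDHC, the other anchor, was at 155, 149 and 175 CPM in non-treated and 133, 149 and 161 CPM in 6j treated cells. These values overlapped, and SDHC did not pass with or without the block. The differences between complexes were not tested.

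In complex III, 5 of 9 nuclear-encoded subunits fell (9 of 9 with the replicate block), and the 3 catalytic subunits of both genomes had its 3 lowest log2 fold changes. CYC1, the cytochrome c1 that hands electrons to cytochrome c (chromosome 8, 144095027 to 144097525), was at 157, 147 and 151 CPM in non-treated and 112, 89.8 and 91.1 CPM in 6j treated cells. The groups were well apart, and the log2 fold change was −0.63 ± 0.10 (adjusted p = 0.0105 from edgeR). UQCRFS1, the Rieske iron-sulfur protein, was at 76.4, 83.4 and 91.0 CPM in non-treated and 60.0, 59.2 and 51.4 CPM in 6j treated cells, with −0.55 ± 0.10 on the log2 scale (adjusted p = 0.0121 from edgeR). Together with MT-CYB at −0.67, these are the redox subunits of the complex. Of the small subunits, UQCR10 fell by 0.54 and UQCRQ by 0.53, while UQCRC1 and UQCRC2, the large core proteins, were at −0.23 and −0.25 and did not pass in edgeR until the block was added. DESeq2 without the block called 8 of the 9. UQCRQ shares exon positions with GDF9 on the opposite strand. UQCRH was at −0.32 (adjusted p = 0.06 from edgeR, 0.00346 with the replicate block), and UQCRHL, a near-identical copy at 6.38 ± 0.299 CPM (SD, n = 3) in non-treated cells, was at −0.46 (adjusted p = 0.15 from edgeR). Reads of these copies can be assigned to either.

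In complex IV, 6 of 12 nuclear-encoded members fell, with a median of −0.41. COX7B, a small membrane subunit (chromosome X, 77899438 to 77907373), was at 137, 138 and 136 CPM in non-treated and 98.1, 91.3 and 99.1 CPM in 6j treated cells. The spread within each group was small beside this difference, and the log2 fold change was −0.51 ± 0.07 (adjusted p = 0.00758 from edgeR). COX7A2, COX7C, COX8A and COX6B1 fell by 0.48, 0.46, 0.45 and 0.44, and COX5B by 0.37 on the log2 scale. No fit without 1 library called COX5B. COX4I1, the largest nuclear-encoded subunit, was at 235, 223 and 234 CPM in non-treated and 212, 201 and 210 CPM in 6j treated cells. Its groups did not overlap, but the log2 fold change of −0.15 ± 0.07 did not pass with or without the block (adjusted p = 0.0709 and 0.222 in edgeR). COX6A1 was at −0.17 and did not pass either. NDUFA4, first named as a complex I subunit and now placed in complex IV, was at −0.31 and passed in edgeR once the block was added (adjusted p of 0.111 without and 0.0137 with the replicate block in edgeR).

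Several COX subunits of complex IV have a partner isoform that is made in other tissues, and in each of these COX pairs the partner was low or not detected. COX4I2, COX6A2 and COX7B2 had a count of 0 in all 6 libraries, which allows up to 3 counts in each. COX8C had at most 5 counts and COX7A1 at most 13 counts in a library, and neither was tested. COX6B2, with 0.887 ± 0.466 CPM in non-treated and 0.576 ± 0.157 CPM in 6j treated cells (SD, n = 3), was at −0.63 ± 0.49 and did not pass (adjusted p = 0.467 from edgeR). The liver and body-wide forms COX6A1, COX7A2 and COX8A had group means of 54.7 CPM or more. NDUFA4L2, the paralogue of NDUFA4, was at 36.4, 34.4 and 53.9 CPM in non-treated and 22.2, 39.3 and 85.8 CPM in 6j treated cells. Its 6j treated libraries spread on both sides of the non-treated ones, so that the log2 fold change of 0.24 ± 0.56 gave no direction, and turned to −0.43 without 6j replicate 3.

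In ATP synthase, 11 of 17 nuclear-encoded subunits fell (16 with the replicate block). ATP5MC1, ATP5MC2 and ATP5MC3 encode the same mature subunit c, whose ring turns as protons pass, and all 3 fell. ATP5MC1 (chromosome 17, 48892765 to 48895871) was at 71.8, 71.3 and 73.7 CPM in non-treated and 41.9, 37.7 and 40.7 CPM in 6j treated cells. It had the smallest p of all members, with a log2 fold change of −0.85 ± 0.08 (edgeR, adjusted p = 0.00129). ATP5MC3 was at 118, 118 and 126 CPM in non-treated and 79.2, 74.7 and 74.2 CPM in 6j treated cells, with −0.67 ± 0.08 on the log2 scale (adjusted p = 0.00311 from edgeR), and ATP5MC2 fell by 0.37. ATP5MC2 was called in 1 of the 6 fits without 1 library, and ATP5MC1 and ATP5MC3 in all 6.

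Of the 5 subunits of F1, the part made of the catalytic head and the central shaft, 4 fell. ATP5F1B, the catalytic beta subunit and the most abundant nuclear-encoded member per length (504 CPM per kb in non-treated cells), was at 1186, 1176 and 1151 CPM in non-treated and 904, 783 and 723 CPM in 6j treated cells, and fell by 0.54 on the log2 scale. ATP5F1E, the epsilon subunit, was at 153, 142 and 142 CPM in non-treated and 92.5, 107 and 91.1 CPM in 6j treated cells, with −0.59 ± 0.09 (adjusted p = 0.0085 from edgeR). It shares exon positions with TUBB1 on the opposite strand. ATP5F1A and ATP5F1D fell by 0.43 and 0.54, whereas ATP5F1C, the central shaft, was at −0.21, with an edgeR adjusted p of 0.117 without the block and 0.0361 with it. In the membrane part, 4 of 5 subunits fell, ATP5MF by 0.51, ATP5ME by 0.44, ATP5MG by 0.35 and ATP5MPL by 0.34. No fit without 1 library called ATP5MPL, and ATP5ME and ATP5MG were called in 1 each. ATP5MF shares exons with PTCD1 and with a readthrough of the pair.

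The 4 subunits of the peripheral stalk, which holds the head still, did not pass in edgeR without the block. At an unadjusted p under 0.05, for which no share of all rows is given here, 3 of them were lower, and DESeq2 called 2 as lower. ATP5PB, ATP5PF, ATP5PD and ATP5PO were at −0.33, −0.31, −0.24 and −0.18, with adjusted p-values of 0.0726 to 0.203 from edgeR, and 3 of them passed with the replicate block. In each of the 4, the groups did not overlap. Whether the peripheral stalk differed from F1 or the ring was not tested.

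**Figure D5:**
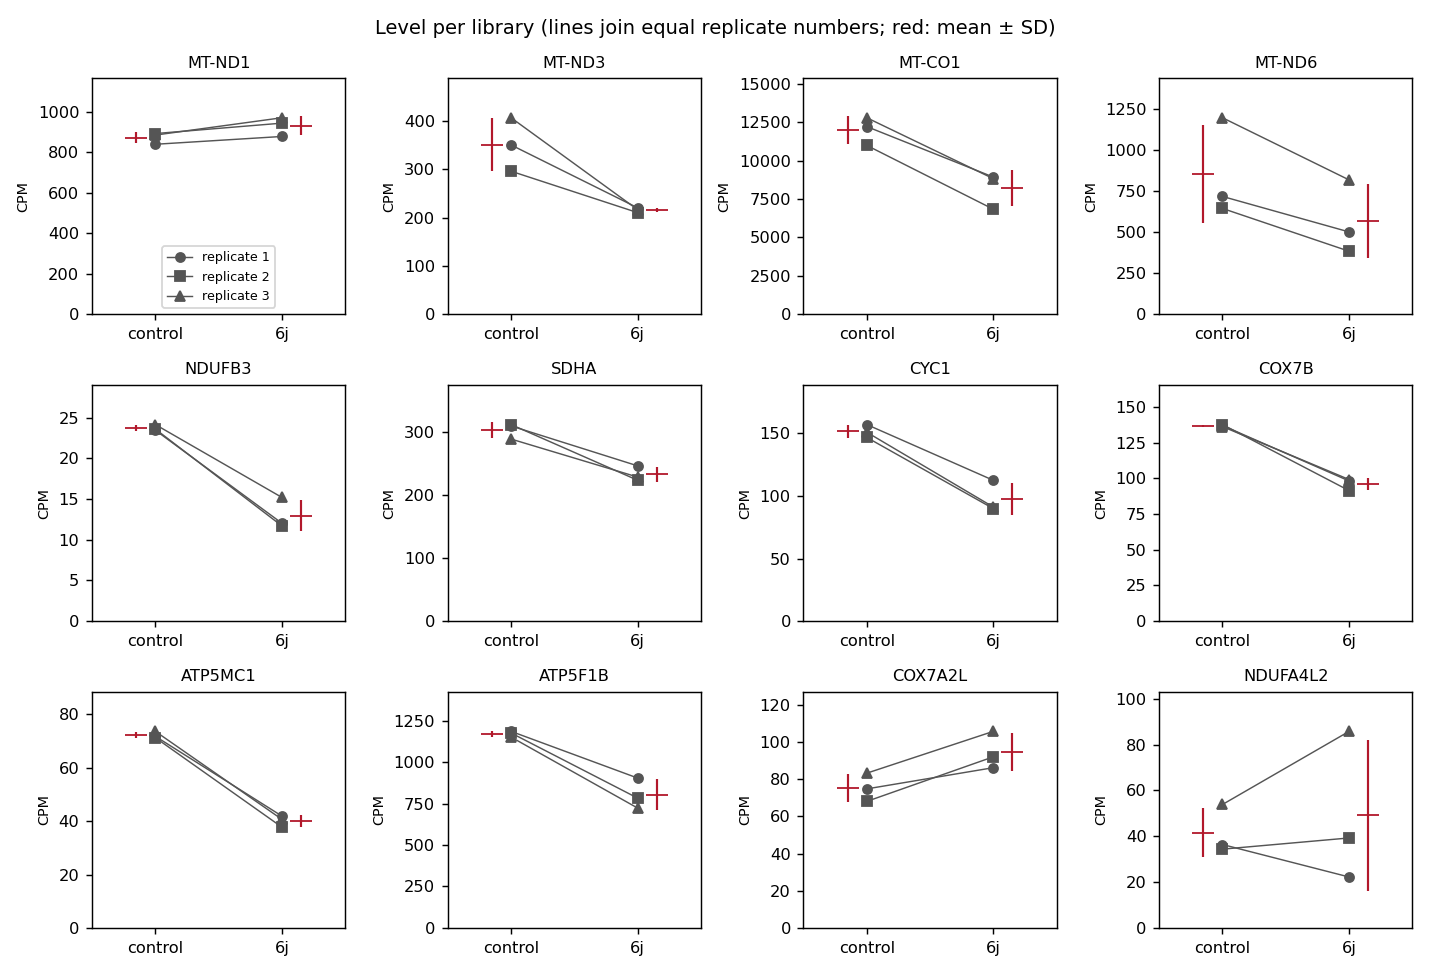
Level in CPM of 12 members in each library, with lines joining libraries of the same replicate number and a red mark for the mean ± SD (n = 3) of each group. The axes start at 0, and the lines descend in all 3 pairs for 9 of the 12 genes, rise in all 3 for MT-ND1 and COX7A2L, and go both ways for NDUFA4L2.

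Of the members that are not subunits of complexes I to V, ATP5IF1 and COX7A2L lay on opposite sides of 0. ATP5IF1, which inhibits ATP hydrolysis by ATP synthase, was at 140, 142 and 164 CPM in non-treated and 112, 109 and 123 CPM in 6j treated cells, with −0.37 ± 0.09 on the log2 scale (adjusted p = 0.0377 from edgeR). ATP5IF1 was called in 1 of the 6 fits without 1 library. COX7A2L, a factor that joins complex III to complex IV in supercomplexes (chromosome 2, 42333546 to 42425088), was singled out after its values were seen. It was at 74.7, 68.0 and 83.2 CPM in non-treated and 86.1, 92.0 and 106 CPM in 6j treated cells, so that every 6j treated library was above every non-treated one. The log2 fold change of 0.33 ± 0.11 did not pass (adjusted p = 0.0852 from edgeR), and COX7A2L rose with the replicate block (adjusted p = 0.00302). It was above 0 in all 17 fits.

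Promoters of nuclear-encoded respiratory genes are known to carry sites for NRF1, for ETS factors such as GABP, and for YY1, and these were looked for in RefSeq windows (GRCh38.p14) from 250 bases before to 50 bases after each start. Of the 83 nuclear-encoded members tested, 68 matched by Ensembl identifier, symbol or synonym, and 65 of these were subunits, with 77 windows. On either strand, the NRF1 motif (GCGC, any 2 bases, GCGC) stood in 22.1% of the subunit windows and in 8.32% of all 35116 windows, CCGGAAG (ETS) in 28.6% and 10.3%, and ATGGCGGC (YY1) in 16.9% and 3.0%. At least 1 of these 3 stood in 54.5% of the subunit windows and in 19.0% of all. The cyclic AMP response element TGACGTCA stood in 6.49% and 1.85%, and TGATGNAA, the element of ATF4 with a CEBP partner, in 2.6% and 3.62%. No 2 motifs overlapped in these windows, and their median GC content was 61.0% against 58.7% over all windows. Among the 39 matched subunits that fell, 11 had the NRF1 motif, 13 the ETS motif and 8 the YY1 motif, and among the 26 that did not pass these were 6, 8 and 4. A match is a description of letters and was not tested as a site.

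Windows of 3 subunits that fell in all fits without 1 library, chosen because they hold a motif, and of COX7A2L are printed 5′ to 3′ on the strand of the gene, with the motif in capitals. ATP5MC1 (chr17:48892537-48892836, plus strand) holds the cyclic AMP response element, UQCR10 (chr22:29767119-29767418, plus strand) the NRF1 and YY1 motifs and UQCRQ (chr5:132866392-132866691, plus strand) the ETS motif. None of the motifs is in the COX7A2L window (chr2:42361168-42361467, minus strand), which is 1 of 2 for that gene. The windows of NDUFB3 and COX7B, which also fell in all of these fits, hold none either.
ATP5MC1: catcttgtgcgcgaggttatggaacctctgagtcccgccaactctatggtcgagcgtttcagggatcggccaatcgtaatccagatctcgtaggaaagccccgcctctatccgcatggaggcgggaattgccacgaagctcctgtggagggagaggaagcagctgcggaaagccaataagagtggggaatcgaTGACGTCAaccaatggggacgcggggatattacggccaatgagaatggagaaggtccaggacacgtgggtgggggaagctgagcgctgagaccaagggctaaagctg
UQCR10: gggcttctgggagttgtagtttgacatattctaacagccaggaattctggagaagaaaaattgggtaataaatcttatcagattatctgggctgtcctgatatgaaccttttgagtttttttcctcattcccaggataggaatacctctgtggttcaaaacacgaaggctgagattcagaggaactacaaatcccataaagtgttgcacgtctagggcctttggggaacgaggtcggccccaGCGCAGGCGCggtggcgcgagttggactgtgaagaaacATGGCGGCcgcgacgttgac
UQCRQ: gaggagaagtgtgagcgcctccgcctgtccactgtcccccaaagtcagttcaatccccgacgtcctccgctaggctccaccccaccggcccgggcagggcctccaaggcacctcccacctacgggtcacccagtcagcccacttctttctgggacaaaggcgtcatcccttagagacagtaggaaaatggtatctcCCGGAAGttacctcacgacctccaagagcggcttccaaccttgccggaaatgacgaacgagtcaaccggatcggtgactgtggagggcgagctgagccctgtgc
COX7A2L: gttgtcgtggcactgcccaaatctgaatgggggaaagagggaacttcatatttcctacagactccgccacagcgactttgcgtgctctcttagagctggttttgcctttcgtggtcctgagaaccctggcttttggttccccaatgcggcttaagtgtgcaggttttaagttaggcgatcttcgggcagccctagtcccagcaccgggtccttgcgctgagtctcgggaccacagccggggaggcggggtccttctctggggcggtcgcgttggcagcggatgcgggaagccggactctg

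Genes that build, regulate and feed the chain were counted in the same way, against 4.37% of all rows lower and 4.79% higher, or 13.9% and 13.1% with the replicate block. Of 19 assembly factors of complex I, 1 fell (5.26%) and none rose in edgeR, with a median of −0.21 (7 fell with the replicate block). At an unadjusted p under 0.05, for which no share of all rows is given here, 8 were lower and 0 higher. DESeq2 called 2 lower and 0 higher. NDUFAF3, which acts early in complex I assembly, was at 41.8, 47.2 and 45.04 CPM in non-treated and 34.0, 28.6 and 31.0 CPM in 6j treated cells, with −0.52 ± 0.10 on the log2 scale (adjusted p = 0.0172 from edgeR). ACAD9 and ECSIT, further assembly factors, were at −0.28 and −0.31 with adjusted p-values of 0.064 and 0.0881 from edgeR, and passed with the block (adjusted p = 0.00623 and 0.0161). Of 39 rows listed as assembly factors of complexes II to V, 2 fell (5.13%) and 1 rose, with a median of −0.15, and 12 fell and 1 rose with the replicate block. SCO2 entered this list as 2 rows. The rows that fell without the block were ATP5IF1, which is the inhibitor and also a member, and UQCC3, a complex III factor, by 0.41. COX19, a copper chaperone factor of complex IV, was at 17.3, 17.2 and 12.95 CPM in non-treated and 23.5, 22.4 and 21.8 CPM in 6j treated cells, and rose by 0.51 ± 0.13 on the log2 scale (adjusted p = 0.0456 from edgeR). COX19 did not pass in any of the 6 fits that left out 1 library.

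Of 25 regulators of respiratory gene expression, 1 fell (4.0%) and 1 rose, with a median of −0.13, and 6 fell and 2 rose with the replicate block. PPARGC1A, the coactivator PGC-1 alpha that is known to drive mitochondrial biogenesis, was at 26.0, 31.5 and 22.6 CPM in non-treated and 38.7, 62.4 and 42.5 CPM in 6j treated cells. All 3 treated libraries were above all 3 non-treated libraries, and the log2 fold change was 0.84 ± 0.20 (adjusted p = 0.0374 from edgeR), which made it a DEG. SLIRP, which stabilises mitochondrial mRNAs together with LRPPRC, was at 33.9, 34.4 and 34.8 CPM in non-treated and 19.8, 27.8 and 22.9 CPM in 6j treated cells, with −0.55 ± 0.13 on the log2 scale (adjusted p = 0.0317 from edgeR). SUPV3L1, a helicase of mitochondrial RNA turnover, was at 0.30 ± 0.09 and passed in edgeR once the block was added (adjusted p of 0.0786 without and 0.0144 with the replicate block in edgeR).

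Of 19 electron carriers and feeders tested, 2 fell (10.5%) and none rose in edgeR, with a median of −0.19 (7 fell with the replicate block). At an unadjusted p under 0.05, for which no share of all rows is given here, 7 were lower and 0 higher. DESeq2 called 4 lower and 0 higher. ETFB, a subunit of the flavoprotein that brings electrons from fatty acid oxidation, was at 67.4, 68.7 and 76.1 CPM in non-treated and 56.3, 48.4 and 56.0 CPM in 6j treated cells, with −0.40 ± 0.09 on the log2 scale (adjusted p = 0.031 from edgeR). PDSS1, which makes the side chain of coenzyme Q, fell by 0.57. DHODH, which feeds electrons from pyrimidine synthesis into coenzyme Q, was at −0.47 ± 0.13 with an adjusted p of 0.0579 from edgeR and passed with the block (adjusted p = 0.0103). NDUFAF3, UQCC3, SLIRP, PPARGC1A, ETFB and PDSS1 each lost the call without non-treated replicate 1 and without non-treated replicate 3, and all but SLIRP also without 6j replicate 2. Whether these lists differed from the subunits was not tested.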

How the data were processed

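Poly(A) RNA of 6 libraries was sequenced, and raw counts, whole numbers for each gene, were deposited by the authors. The submitters' processing notes name HISAT2, StringTie and GRCh38, and the counting program and its use of strand are not given in the sources used here. The table lists protein-coding genes and regions the authors assembled as new genes, so ribosomal and transfer RNA rows of mitochondrial DNA were not analysed here. The study names DESeq2 and a fold change above 1.5. Here the counts were tested with edgeR 4.0.16 (R 4.3.3, limma 3.58.1, robust quasi-likelihood test, TMM) after filterByExpr (minimum count 10, total 15), which kept 15957 of 25445 rows. Standard errors were computed from the F statistic. DESeq2 1.42.0, the replicate block, other scalings, no filter, Ensembl genes only and leaving out each library were alternatives. After the data were seen, a loess correction for GC content and exon length, alone and with the block, and DESeq2 with the block were added. The library totals of 31533403 to 38018349 counts set the precision, and the floor of 3 counts covers counting error only. Levels per kb use the merged exon length of GENCODE version 29, which overstates the length of genes with many isoforms. The edgeR fit without the block was tested on simulated data that held no shared replicate effect. The replicate block, DESeq2 and the GC and length correction were not tested in this way.

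The groups share replicate numbers, and the sources do not say what a number marks. After subtraction of the group mean, libraries of equal number correlated at 0.171, 0.18 and 0.312 and those of unequal number at −0.231 to 0.0795. Replicate 3 of both groups stood apart on principal component 2, with 25.6% of the variance. The numbers were therefore taken to pair the libraries.

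The members and lists were chosen with earlier results of these data known. Named genes were the mitochondrial mRNAs, the 4 members of complexes I, III, IV and V each with the smallest p, the SDH genes, DEGs, isoform pairs and the 3 genes with the smallest p of each list. Other members named in the text were chosen after their values were seen. Some items enter the counts and medians but are not reported here by name.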

Additional observations from a re-analysis of the deposited data

How the results depend on the processing

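The direction was steadier than the number of calls. Of all rows, 697 fell and 765 rose, against 1155 and 1185 with DESeq2, 2213 and 2084 with the replicate block, 1831 and 1682 with DESeq2 and the block, 2145 and 2003 with the GC and length correction and the block, 178 and 396 above a 1.5-fold change, and 63 to 782 and 139 to 826 without 1 library. Members that fell, 50 in the edgeR fit without a block, were 80 with the replicate block, 81 with DESeq2 and the block, 79 with the GC and length correction and the block, 8 above a 1.5-fold change and 9 to 42 without 1 library. Members that rose were 0, against 1 with DESeq2 (adjusted p under 0.05), 1 with the block, 1 with both, 2 with the GC and length correction and the block, MT-ND1 among them, and 0 without 1 library. Without 1 library, 2 to 19 nuclear members of complex I fell, 0 to 1 of complex II, 2 to 7 of complex III, 1 to 5 of complex IV, 3 to 9 of complex V and 0 to 3 of the mitochondrial mRNAs. Above a 1.5-fold change these were 2, 0, 1, 0 and 3 for complexes I to V, and complex II had 1 with total counts alone. In complex III, 8 fell with DESeq2, 9 with the block with either tool and 8 with the GC and length correction and the block. Of the mitochondrial mRNAs, 10 fell with DESeq2, 12 with the block with either tool, 1 with the GC and length correction and 11 with that correction and the block. That correction moved the median of the nuclear-encoded subunits from −0.36 to −0.31 with and without the block, and left 39 members that fell (4.77% of its rows). Shorter exon length and lower GC content moved with membership, at a median of 2480 bp and 48.3% in nuclear-encoded members against 5030 bp and 49.5% over Ensembl rows. Over Ensembl rows, the log2 fold change had a Spearman correlation of 0.139 with exon length and −0.179 with GC content. Shorter rows thus tended to be lower and rows of lower GC content higher. The part of length and GC content was not tested beyond that correction. Scaling by DESeq2 size factors, total counts, no filter, Ensembl genes only and leaving out the mitochondrial rows kept the count of members within 1.5 times. NDUFA4L2 turned to −0.43 when 6j replicate 3 was left out, and was at most 0.59, in the fit without 6j replicate 1. NDUFA5, near 0 throughout, was above 0 in 1 of its 17 fits, at 0.021, and no other member named with a test changed direction. The causes of these changes were not tested. The planned share without mitochondrial ribosomal and transfer RNA rows equals the share given, as no such row was used here. At these depths, the smallest difference of a member that passed without the block was −0.31, of SDHD.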

Other observations

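Of the 8 members that the filter on counts kept out of the test, the readthrough of NDUFC2 and KCTD14 had the widest spread. It had 560, 318 and 0 counts in non-treated replicates 1 to 3 and 0 in each of the 6j treated replicates. The readthrough entered 7 of the other fits, with log2 fold changes of −11.8 to −9.87. It was called lower in 1 of the fits without 1 library and is in the count of members that fell there. With this readthrough, the 66 members that DESeq2 called lower are 67. It shares exons with NDUFC2, which had 9507 to 11913 counts, and how the counting split reads between them was not tested. ATP5MGL, a copy of ATP5MG, had at most 5 counts and the readthrough of ATP5MF and PTCD1 at most 3 counts in a library.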
